A study of Rattus norvegicus with 8 samples.

Results

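Genes that make, remove or carry oxalate and its precursor glyoxylate were measured in the renal cortex and the outer medulla of rats with and without ethylene glycol-induced kidney stones. The 10 genes were chosen by name: 6 enzymes (Hao2, Agxt2, Grhpr, Hoga1, Prodh2 and Dao) and 4 anion exchangers of the Slc26 family (Slc26a1, Slc26a2, Slc26a6 and Slc26a7). All 10 were found, each as 1 probe set, among 15037 genes with a symbol and 23188 transcript probe sets on the Clariom S array, whose values are log2 intensities. A step of 1 on this scale is a 2-fold difference.

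RNA came from male Sprague-Dawley rats aged 10 weeks. The study asked how inhibition of the renal glucose transporter SGLT2 relates to stone formation, and used phlorizin, which blocks sodium-glucose cotransport. The 4 treatments were EG with phlorizin, EG alone, phlorizin alone and control, where EG stands for stone induction over 2 weeks with ethylene glycol and alfacalcidol, an active vitamin D analogue. Each treatment has 1 array of cortex and 1 array of outer medulla, 8 arrays in all, and the labels do not say how many rats each array represents or whether the 2 zones came from the same rats. As far as the labels say, alfacalcidol was given for stone induction only, so an EG difference is a difference of both agents together.

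In mammals, glyoxylate arises from glycolate, from glycine and from the breakdown of hydroxyproline, an amino acid of collagen. Glyoxylate that is not turned into glycine or glycolate can be oxidised to oxalate, which forms insoluble crystals with calcium in the tubule. Ethylene glycol is oxidised to glycolate and glyoxylate, mostly in the liver, and the kidney excretes the oxalate. Exchangers of the Slc26 family carry oxalate, sulfate, chloride or bicarbonate across the tubule cell membranes.

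Values across the arrays were close in scale, with array medians between 7.39 and 7.58. The mean of the background probes was 5.53 to 5.68, and the median of 1153 negative-control probe sets was 7.31 to 7.70. The cortex EG array had the lowest signal of the added poly-A control RNAs, 6.42 against 7.46 to 8.23 on the other 7 arrays, and every cortex result below that uses EG without phlorizin rests on it. Its part in those results was not tested. The zone labels could be checked against marker genes. All 7 proximal convoluted tubule markers were higher in cortex and all 5 thick ascending limb markers were lower in cortex than in outer medulla at adjusted p under 0.05 (limma). Of the 4 tested markers of the straight proximal segment, 2 were higher in cortex and 0 lower, with a median difference of 1.93. How much straight segment the outer medulla samples hold was not tested. Of the 4 liver markers, Alb and Apoa1 lay below the mean background on all 8 arrays and Ttr lay between 6.82 and 8.01. The fourth, Fgb, had cortex values of 9.37 with EG and phlorizin, 11.66 with EG, 6.52 with phlorizin and 6.93 in control, and in outer medulla 6.87, 8.43, 5.46 and 5.35 in the same order.

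The promoter windows of 4 enzyme genes are given here because their values with EG sit at opposite ends in cortex. Hao2 and Agxt2 were the enzyme genes whose cortex values differed least between EG and control, and Grhpr and Prodh2 those that differed most. Each window runs from 250 bases before to 50 bases after the transcription start in RefSeq, build GRCr8, where 8 of the 10 genes were matched. Capitals mark the letters of a searched motif, read on either strand.
Hao2, chr2:188913084-188913383, minus strand: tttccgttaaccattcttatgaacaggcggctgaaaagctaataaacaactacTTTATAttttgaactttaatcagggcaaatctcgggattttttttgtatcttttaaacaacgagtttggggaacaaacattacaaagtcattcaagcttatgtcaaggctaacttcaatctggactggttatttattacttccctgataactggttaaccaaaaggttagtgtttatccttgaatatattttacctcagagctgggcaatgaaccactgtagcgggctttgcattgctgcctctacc
Agxt2, chr2:61063166-61063465, plus strand: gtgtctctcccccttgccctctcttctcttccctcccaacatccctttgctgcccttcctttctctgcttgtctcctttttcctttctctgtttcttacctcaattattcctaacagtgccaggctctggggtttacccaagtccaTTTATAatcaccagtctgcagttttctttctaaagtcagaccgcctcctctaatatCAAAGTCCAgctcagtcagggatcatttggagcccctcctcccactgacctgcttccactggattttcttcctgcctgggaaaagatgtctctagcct
Grhpr, chr5:64029606-64029905, plus strand: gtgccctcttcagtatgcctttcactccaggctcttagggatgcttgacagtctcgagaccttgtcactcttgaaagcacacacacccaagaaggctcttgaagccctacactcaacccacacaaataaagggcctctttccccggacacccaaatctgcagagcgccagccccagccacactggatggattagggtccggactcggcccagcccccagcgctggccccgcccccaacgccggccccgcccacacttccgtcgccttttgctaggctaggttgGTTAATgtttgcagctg
Prodh2, chr1:94880837-94881136, plus strand: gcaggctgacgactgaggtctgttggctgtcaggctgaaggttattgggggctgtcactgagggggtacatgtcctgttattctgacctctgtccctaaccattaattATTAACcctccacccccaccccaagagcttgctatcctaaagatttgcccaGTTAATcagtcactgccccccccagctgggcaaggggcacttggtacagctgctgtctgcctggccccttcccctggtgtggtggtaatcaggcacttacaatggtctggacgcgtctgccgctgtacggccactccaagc

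The Agxt2 window holds the HNF4 motif CAAAGTCCA at position -48, letters found in 0.391% of 33469 rat promoter windows. HNF4 is a nuclear receptor of liver and proximal tubule. The HNF1 core GTTAAT, named for another transcription factor of liver and tubule, lies at position 34 of Grhpr and at positions -142 and -91 of Prodh2, and 7.45% of all windows hold it. The capitals in Hao2 and the first capitals in Agxt2 are the TATA box letters TATAAA on the opposite strand, which 14.2% of windows hold. The peroxisome proliferator response element was in 0 of the 8 matched windows and in 0.0538% of all windows. The motifs do not overlap each other. A match is a string of letters in a window and does not show binding. Among the 8 windows, Agxt2 had the fewest CpG dinucleotides, 1, and Slc26a2 the most, 28, against a median of 7 over all windows.

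Most of these genes differed widely between the zones of the kidney. A limma fit of cortex minus outer medulla, with the treatment as a block and 4 pairs of arrays, was run on the 13170 probe sets whose highest value reached 7.54, the median of all deposited values. Slc26a6 did not reach that value and was not tested, which leaves 9 of the 10 genes. At adjusted p under 0.05, 7 of the 9 were higher in cortex, where 18.8% of all tested probe sets were, and 2 were lower in cortex, where 32.7% were. The median difference over the 9 genes was 4.44 log2 units, or 4.40 with Prodh2 and Slc26a1 at their lower bounds, and over all tested probe sets it was -0.17. Both counts stayed at 7 and 2 when any treatment was left out, with the filter kept as set on all 8 arrays. The set of tested genes therefore could not change in these fits. Slc26a2 reached the filter only on the outer medulla EG array, and Prodh2 and Slc26a1 reached it only in cortex. Each of these genes passed only through the zone where it was then called higher, so its call is no separate support. With every value required to reach 7.54, fewer genes were tested, and 4 were higher and 0 lower. With no filter the counts were 7 and 2.

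Among the enzymes, Hao2, a peroxisomal oxidase of 2-hydroxy acids that is prominent in rat kidney, had values in cortex of 18.16 with EG and phlorizin, 17.61 with EG, 18.38 with phlorizin and 18.18 in control. In outer medulla the Hao2 values were 12.59, 13.95, 14.32 and 13.89 in the same order. Every cortex value was above every outer medulla value, and the difference was 4.40 ± 0.31 (SE, 4 pairs, limma adjusted p = 0.000108). The cortex values of Hao2 lie near the top of the scale, whose highest deposited value was 19.7, and whether differences are compressed there was not tested.

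Agxt2, a mitochondrial aminotransferase that moves an amino group from alanine to glyoxylate and so makes glycine, had 16.71 with EG and phlorizin, 16.80 with EG, 16.98 with phlorizin and 16.87 in control cortex. Its outer medulla values were 9.05, 11.33, 9.40 and 9.52 in the same order. The cortex arrays had an SD of 0.12 over the 4 treatments, while the outer medulla EG array stood above the other 3. The zone difference was 7.02 ± 0.37 (SE, limma adjusted p = 4.19e-05).

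Grhpr, the cytosolic reductase that turns glyoxylate into glycolate and hydroxypyruvate into glycerate, had cortex values of 15.61 with EG and phlorizin, 13.79 with EG, 16.25 with phlorizin and 15.94 in control. In outer medulla Grhpr had 9.15, 8.63, 10.13 and 9.98 in the same order. The EG array was the lowest of its zone in cortex and in outer medulla. The zone difference of Grhpr was 5.92 ± 0.22 (SE, limma adjusted p = 1.56e-05).

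Prodh2, which opens the hydroxyproline route as hydroxyproline dehydrogenase, had cortex values of 10.28 with EG and phlorizin, 8.76 with EG, 10.66 with phlorizin and 11.47 in control. Its outer medulla values were 5.65, 6.10, 6.32 and 5.35 in the same order, all under the negative-control median and 2 of them under the mean background. With the outer medulla arrays set to their negative-control medians, cortex was at least 6.21-fold higher. The zone difference fitted to the values as deposited was 4.44 ± 0.49 (SE, limma adjusted p = 0.000592).

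Hoga1, the mitochondrial aldolase that splits the last intermediate of that route into glyoxylate and pyruvate, had 13.76 with EG and phlorizin, 12.68 with EG, 14.45 with phlorizin and 14.22 in control cortex. In outer medulla it had 9.38, 9.39, 9.93 and 9.71 in the same order. The outer medulla arrays spanned little, with an SD of 0.27 over the 4 treatments, against 0.79 in cortex. Hoga1 was 4.18 ± 0.24 higher in cortex (SE, limma adjusted p = 5.29e-05).

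Dao, the peroxisomal D-amino acid oxidase that can form glyoxylate from glycine, had 16.19 with EG and phlorizin, 14.55 with EG, 16.49 with phlorizin and 15.79 in control cortex. Its outer medulla values were 6.38, 8.39, 8.74 and 7.98 in the same order. The lowest cortex array was EG alone, and the lowest outer medulla array was EG with phlorizin, which lay under its negative-control median. The Dao zone difference was 7.88 ± 0.52 (SE, limma adjusted p = 9.03e-05), and by treatment it was 9.81 with EG and phlorizin, 6.16 with EG, 7.75 with phlorizin and 7.81 in control.

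**Figure D1:**
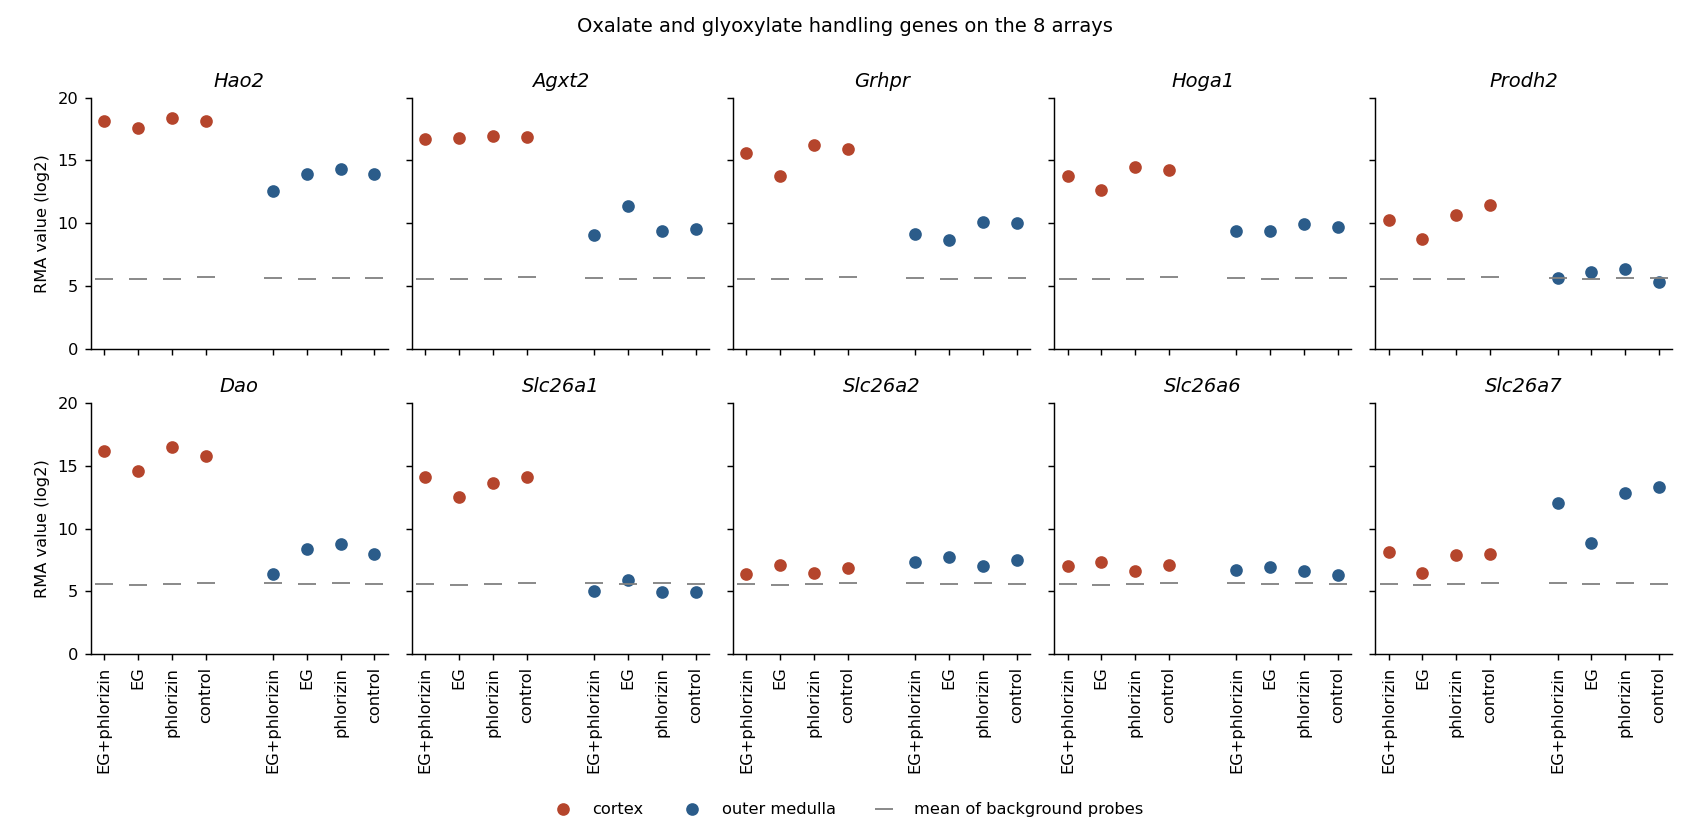
Deposited log2 values of the 10 genes, 1 panel per gene, with the 4 treatments along the horizontal axis (EG with phlorizin, EG, phlorizin, control), cortex in red and outer medulla in blue, 1 point per array, and the mean background of each array as grey dashes. Cortex points lie far above outer medulla points for the 6 enzymes and Slc26a1, the order is turned for Slc26a7, and Slc26a2 and Slc26a6 stay between 6.34 and 7.71 on all 8 arrays.

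The 4 exchangers did not share 1 zone pattern. Slc26a1, which exchanges sulfate and oxalate for bicarbonate at the basolateral side of rodent proximal tubule, had cortex values of 14.13 with EG and phlorizin, 12.52 with EG, 13.67 with phlorizin and 14.15 in control. Its outer medulla values were 5.04, 5.92, 4.92 and 4.92 in the same order, under the negative-control median on all 4 arrays. Cortex was at least 62.3-fold higher with those arrays set to that median, and the difference fitted to the values as deposited was 8.42 ± 0.43 (SE, limma adjusted p = 3.74e-05).

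Slc26a7, an anion exchanger of acid-secreting intercalated cells and thick ascending limb in rodents, ran the other way. Its cortex values were 8.15 with EG and phlorizin, 6.46 with EG, 7.93 with phlorizin and 7.97 in control. In outer medulla Slc26a7 had 12.04, 8.82, 12.87 and 13.35 in the same order. Every outer medulla value exceeded every cortex value, and cortex minus outer medulla was -4.15 ± 0.47 (SE, limma adjusted p = 0.000622).

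Slc26a2, a sulfate transporter best known from cartilage, had 6.39 with EG and phlorizin, 7.06 with EG, 6.43 with phlorizin and 6.88 in control cortex. Its outer medulla values were 7.31, 7.71, 7.03 and 7.50 in the same order, so the zones overlapped although each treatment's cortex value was the lower. The difference of -0.70 ± 0.14 (SE, limma adjusted p = 0.00631) was called, but 7 of the 8 values lay under the median of the negative controls. Slc26a6, the apical exchanger of chloride for oxalate known from rodent proximal tubule and intestine, lay under that median on all 8 arrays, between 6.63 and 7.35 in cortex and between 6.34 and 6.92 in outer medulla. Without the filter on low values its zone difference was 0.36 ± 0.17 (SE, limma adjusted p = 0.157). The array could not separate Slc26a6 from background at this signal, which does not show that the gene was not expressed.

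**Figure D2:**
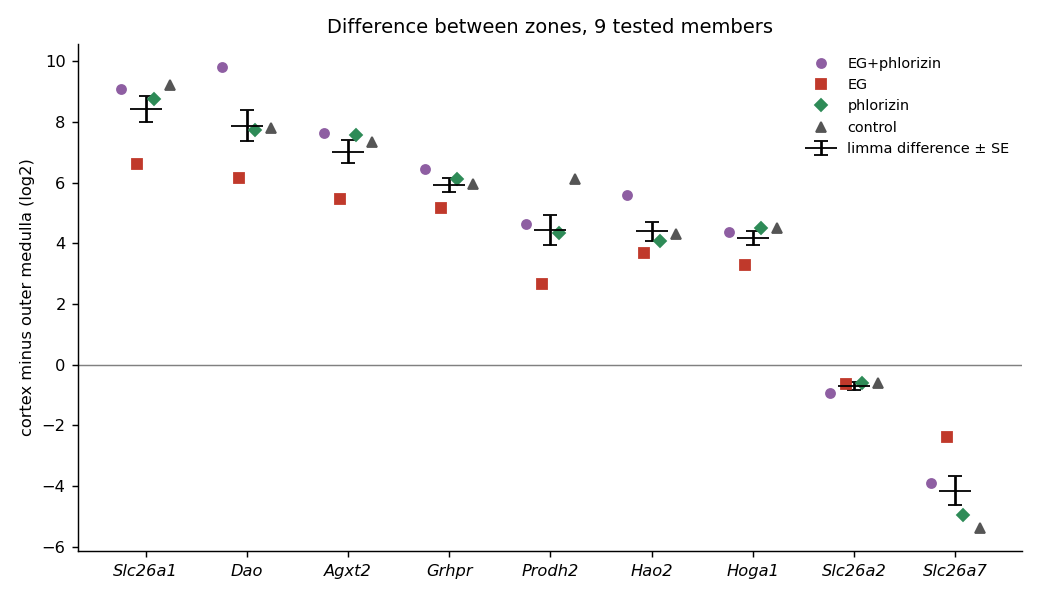
Cortex minus outer medulla on the log2 scale for the 9 tested genes, with the limma estimate and its SE as a bar and the 4 treatments as points. The 6 enzymes and Slc26a1 lie between 4.18 and 8.42, Slc26a2 at -0.70 and Slc26a7 at -4.15.

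With EG, most of these genes had lower values in cortex. Each comparison of treatments within a zone sets 1 array against 1 array, so it has no test, and the size counted was a difference of at least 1 log2 unit. Bulk tissue cannot tell fewer cells of a type from less RNA per cell. In cortex, 6 of the 9 tested genes were at least 1 lower with EG than in control, where 12.7% of all tested probe sets were, and 0 were at least 1 higher, where 9.66% were. The median over the 9 genes was -1.51, and over all tested probe sets -0.07. The 6 genes were Prodh2 at -2.71, Grhpr at -2.16, Slc26a1 at -1.63, Hoga1 at -1.55, Slc26a7 at -1.51 and Dao at -1.24. The cortex EG value of Slc26a7, 6.46, lay under the negative-control median of that array, 7.50, so the size of its difference is uncertain. Of all tested probe sets, 1.15% had a difference as low as that of Prodh2 and 2.35% one as low as that of Grhpr. Hao2 differed by -0.57, Agxt2 by -0.07 and Slc26a2 by 0.18.

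The enzymes did not all differ alike in cortex. Prodh2 and Hoga1, the first and last enzymes of hydroxyproline breakdown, and Grhpr, which removes glyoxylate, were all at least 1 lower with EG, while Agxt2, which also removes glyoxylate, differed by -0.07. Summed signal is given as the log2 of the added unlogged intensities, so the brightest genes weigh most. For the 7 proximal convoluted tubule markers it was 19.25 on the EG cortex array and 20.12 on the control cortex array. Of the 7 markers, 2 were at least 1 lower. The 4 general proximal tubule markers summed to 18.30 with EG and 19.06 in control cortex, with Slc27a2 at -1.72, Miox at -1.65, Lrp2 at -0.41 and Cubn at 0.23. Of the 4 tested markers of the straight proximal segment, 2 were at least 1 lower, Slc7a13 at -6.94 and Slc5a10 at -1.84, with a median of -1.35 over the 4.

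Markers of other cells and of injury differed on the same arrays. In cortex, all 5 thick ascending limb markers were at least 1 lower with EG than in control, with a median of -1.54. All 4 fibroblast markers were at least 1 higher, with a median of 3.22, and so were 3 of the 4 macrophage markers, led by Mrc1 at 5.10. Of 4 measured injury markers, Havcr1, a membrane protein of injured proximal tubule, differed by 9.23 and Lcn2, a secreted protein of injured tubule, by 7.35. Vcam1 differed by 0.55, and Krt20, which did not reach the filter on low values, by -0.44. Their part and that of proximal tubule content in the values of the 10 genes was not tested.

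Outer medulla gave another picture. With EG, 2 of the 9 tested genes were at least 1 lower than in control, against 9.68% of all tested probe sets, and 1 was at least 1 higher, against 8.59%. The median was 0.21 for the 9 genes and -0.05 for all tested probe sets. Slc26a7 differed by -4.52 and Grhpr by -1.36. Agxt2 differed by 1.81, a difference reached or passed upward by 3.28% of tested probe sets. Slc26a1 differed by just under 1, with the control array under background. With EG, Grhpr and Slc26a7 were the 2 genes at least 1 lower in both zones, where 4.47% of all tested probe sets were. For Slc26a7 the cortex part rests on an EG value of 6.46, under the negative-control median of that array, 7.50. Prodh2 differed in outer medulla by 0.75 at values near background, Dao by 0.41, Hoga1 by -0.33, Slc26a2 by 0.21 and Hao2 by 0.06.

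Agxt2 and Slc26a1 are genes of proximal tubule, and outer medulla holds straight proximal tubule only in its outer part. Summed signal of the 4 general proximal markers was 13.09 on the EG outer medulla array, against 12.43 on the control outer medulla array, with Cubn at 1.02, Lrp2 at 0.96, Slc27a2 at 0.36 and Miox at -1.66. On the same arrays the 4 tested markers of the straight segment had a median difference of 0.75. Slc5a10 differed by 2.11, Slc5a1 by 1.25, Atp11a by 0.25 and Slc7a13 by -0.97. The control value of Slc5a10, 6.38, lay under the negative-control median of that array, 7.64. Slc5a1, at 5.84 with EG and 4.58 in control, lay under that median on both arrays. The sizes of these Slc5a10 and Slc5a1 differences are therefore uncertain. The 7 convoluted tubule markers summed to 10.40 with EG and 10.37 in control outer medulla. How far the dissection of the zones enters the Agxt2 value was not tested.

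Under phlorizin, the EG differences in cortex were smaller than 1 for all 9 tested genes. EG with phlorizin minus phlorizin in cortex gave 0 genes at least 1 higher, against 2.43% of all tested probe sets, and 0 at least 1 lower, against 1.55%. The values were -0.69 for Hoga1, -0.64 for Grhpr, -0.39 for Prodh2, -0.30 for Dao, -0.28 for Agxt2, -0.21 for Hao2, -0.04 for Slc26a2, 0.22 for Slc26a7 and 0.46 for Slc26a1. The sign of the EG difference was negative for all 6 enzymes in cortex, with and without phlorizin, except that quantile normalization turned Agxt2 without phlorizin to 0.01. Over all tested probe sets the cortex medians were also negative, at -0.07 without phlorizin and -0.05 with it. Without phlorizin, 50.1% of tested probe sets had a cortex difference as low as that of Agxt2. The share of all tested probe sets negative in both comparisons is not given.

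In outer medulla under phlorizin, 2 of the 9 genes were at least 1 lower with EG, Dao at -2.37 and Hao2 at -1.73, where 3.01% of all tested probe sets were. No gene was at least 1 higher, where 3.66% were. Grhpr differed by -0.98, Slc26a7 by -0.82, Prodh2 by -0.67, Hoga1 by -0.55 and Agxt2 by -0.35. Dao and Hao2 are both peroxisomal oxidases, and without phlorizin their outer medulla differences were 0.41 and 0.06. The 4 general proximal markers summed to 11.81 on the array with EG and phlorizin and 12.35 on the phlorizin array. Slc27a2 differed by -2.08, Miox by -2.02, Lrp2 by -0.47 and Cubn by 0.25, and their part was not tested.

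**Figure D3:**
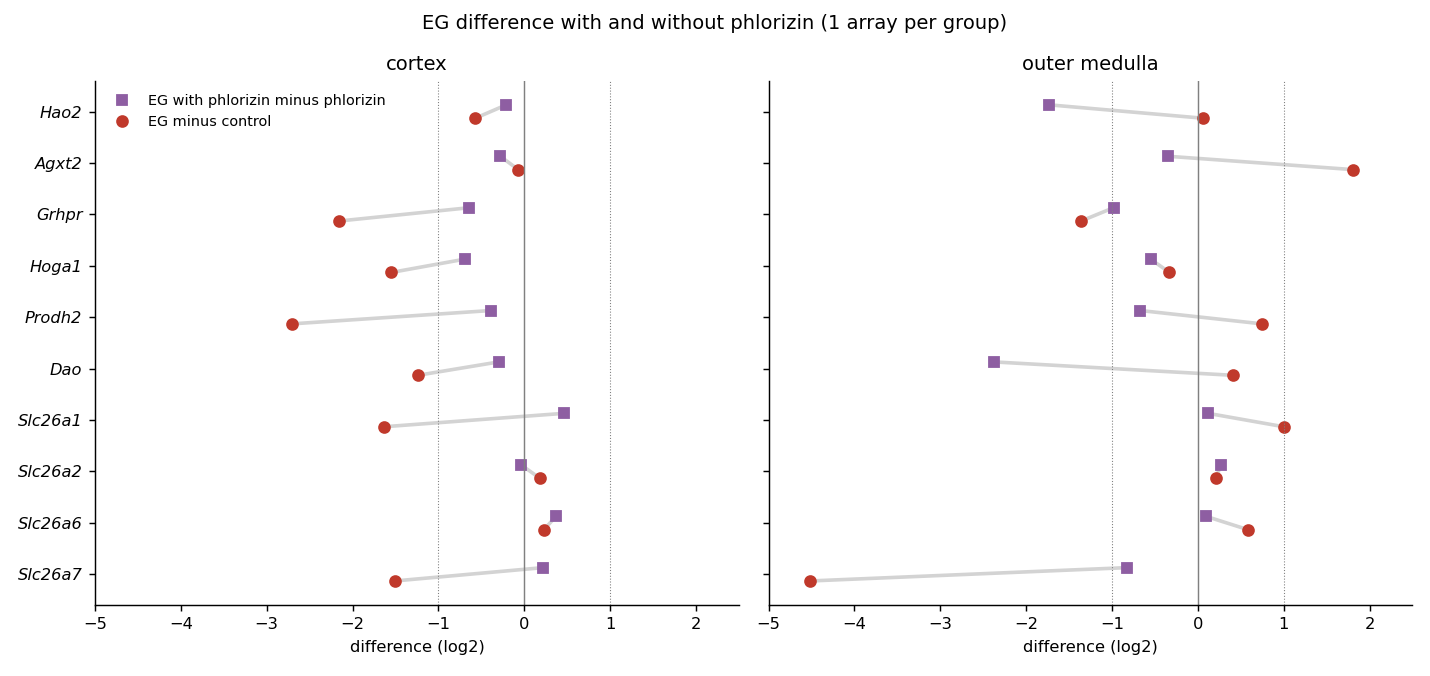
EG differences on the log2 scale for the 10 genes in cortex and in outer medulla, with squares for EG with phlorizin minus phlorizin, dots for EG minus control, and dotted lines at 1 and -1. Each symbol is 1 array minus 1 array. In cortex 6 genes lie at or beyond -1 without phlorizin and 0 with it, and in outer medulla Slc26a7 without phlorizin, at -4.52, lies farthest from 0.

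Among rats with stones induced, the array with phlorizin had higher cortex values than the array without it for most of these genes. EG with phlorizin minus EG was at least 1 in cortex for 6 of the 9 tested genes, against 7.34% of all tested probe sets, and at most -1 for 0, against 6.19%. Grhpr differed by 1.82, Slc26a7 by 1.69, Dao by 1.63, Slc26a1 by 1.61, Prodh2 by 1.52 and Hoga1 by 1.09. The Slc26a7 difference again rests on its cortex EG value of 6.46, under the negative-control median of 7.50. Hao2 differed by 0.55, Agxt2 by -0.10 and Slc26a2 by -0.68. This comparison and EG minus control share the cortex EG array, so a low value on that array gives opposite signs in them by construction. That array is also the one with the lowest poly-A controls.

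In outer medulla, EG with phlorizin minus EG was at least 1 for 1 of the 9 genes, against 3.35% of all tested probe sets, and at most -1 for 3, against 4.34%. Slc26a7 differed by 3.22, Agxt2 by -2.28, Dao by -2.02 and Hao2 by -1.36. Slc26a1 differed by -0.88, Grhpr by 0.53 and Prodh2 by -0.45. The 4 general proximal markers all lay at least 1 lower in this comparison, with a median of -1.27.

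Phlorizin without EG left all 9 tested genes within 1 log2 unit of control. The share of all tested probe sets past that size in cortex was 0.653% upward and 0.509% downward, and in outer medulla 0.577% upward and 0.205% downward. Prodh2 differed by -0.80 in cortex and by 0.96 in outer medulla, where it was near background. Dao differed by 0.69 and 0.76, Hao2 by 0.20 and 0.43, and Grhpr by 0.30 and 0.15, cortex first. Slc26a7 differed by -0.03 in cortex and by -0.48 in outer medulla.

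Fits over all treatments tested the treatments across the zones, with limma on 4 profiles and the EG by phlorizin interaction as the only residual, 1 degree of freedom. For EG minus no EG, on the mean of the zones, 0 of the 9 genes were called higher, where 0.038% of tested probe sets were, and 0 lower, where 0.0% were. By the unadjusted limma p, 5 of the 9 genes and 2995 of the 13170 tested probe sets were under 0.05. Grhpr had -1.28 ± 0.28 (SE, limma adjusted p = 0.0926), and its value was negative in both zones with and without phlorizin. Slc26a7 had -1.66 ± 0.59 (SE, limma adjusted p = 0.177), Dao -0.87 ± 0.28 (adjusted p = 0.147), Hoga1 -0.78 ± 0.22 (adjusted p = 0.121) and Prodh2 -0.75 ± 0.23 (adjusted p = 0.133). Hao2 had -0.61 ± 0.25 (SE, limma adjusted p = 0.227), Agxt2 0.28 ± 0.32 (adjusted p = 0.651), Slc26a2 0.16 ± 0.21 (adjusted p = 0.701) and Slc26a1 -0.01 ± 0.24 (adjusted p = 0.98).

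These EG calls turned on single profiles and settings. Grhpr passed at -1.33 with arrays centred on their median (limma adjusted p = 0.0363), at -1.28 with no filter on low values (adjusted p = 0.0483) and at -1.28 with 8 arrays and the treatment as a random block (adjusted p = 0.0277). Leaving out an EG profile leaves 1 profile with EG, whose spread is assumed to be that of the other group, so these p-values rest on a single EG profile. Without the EG with phlorizin profile, 5 genes were called lower, where 22.7% of all tested probe sets were, and 1 higher, where 17.8% were, with Slc26a7 at -2.89 (limma adjusted p = 7.76e-06), Grhpr at -1.87 (adjusted p = 6.44e-05) and Agxt2 at 0.87 (adjusted p = 0.00295). Without the EG profile, Hao2 at -0.81 (limma adjusted p = 0.034) and Grhpr at -0.70 (adjusted p = 0.0469) were the 2 genes called lower, where 3.95% of all tested probe sets were lower and 4.31% higher.

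For phlorizin minus no phlorizin, limma called 0 of the 9 genes in either direction, against 0.0% of tested probe sets higher and 0.0% lower. By the unadjusted limma p, 1 gene and 468 probe sets were under 0.05, and the gene was Grhpr at 0.70 ± 0.28 (SE). For the EG change of the zone difference, which asks whether EG acted unequally in cortex and outer medulla, limma also called 0 genes, against 0.0% of probe sets in each direction, with 1 gene and 1629 probe sets at an unadjusted p under 0.05. That gene was Slc26a7 at 2.03 ± 0.52 (SE, limma adjusted p = 0.297). Without the EG with phlorizin profile, which again leaves 1 profile with EG, 1 gene was called higher, where 4.91% of all tested probe sets were, and 5 lower, where 6.52% were. The first was Slc26a7 at 2.79 (limma adjusted p = 0.000454), and the others were Prodh2 at -2.58, Slc26a1 at -2.40, Agxt2 at -2.00, Dao at -1.62 and Hoga1 at -1.23.

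Slc26a7 in outer medulla showed the widest spread over treatments among the 10 genes, with an SD of 2.04 over the 4 arrays. The EG array had 8.82 and the other 3 arrays 12.04 to 13.35, and only 4 of the 13170 tested probe sets, Slc26a7 included, differed from control by -4.52 or less. With phlorizin on top of EG, Slc26a7 was 3.22 above EG alone, and 9 tested probe sets including it reached that difference. Most markers of intercalated cells differed in the same directions. Of 10 intercalated cell markers, 7 were at least 1 lower with EG than in control outer medulla, with a median of -1.92, and 7 were at least 1 higher with EG and phlorizin than with EG. The others went the other way in the second comparison, Slc26a4 at -0.71, Kit at -0.56 and Foxi1, named after its value was seen, at -0.45. EG minus control was 0.83 for Slc26a4, whose outer medulla values all lay under the negative-control medians, and -0.88 for Foxi1. The 10 markers summed to 16.89 with EG and phlorizin, 15.34 with EG, 17.83 with phlorizin and 17.60 in control outer medulla.

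Slc4a1, the basolateral chloride-bicarbonate exchanger of acid-secreting intercalated cells, differed by -2.99 between EG and control outer medulla. Aqp6, a water channel of these cells, differed by -2.02 and Oxgr1, a receptor of base-secreting intercalated cells, by -3.92, while Kit, named after its value was seen, differed by 0.10. Of the 5 thick ascending limb markers, 4 were at least 1 lower with EG, with a median of -1.31. In EG with phlorizin minus EG, 1 of the 5 was at least 1 higher, with a median of 0.81. All 3 red cell markers were at least 1 lower with EG, with a median of -2.42. All 3 were at least 1 higher with EG and phlorizin than with EG, with a median of 2.69. The part of any of these cell types in the Slc26a7 value was not tested. In cortex, where 9 of the 10 intercalated cell markers were at least 1 lower with EG, Slc26a7 lay near the negative controls.

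**Figure D4:**
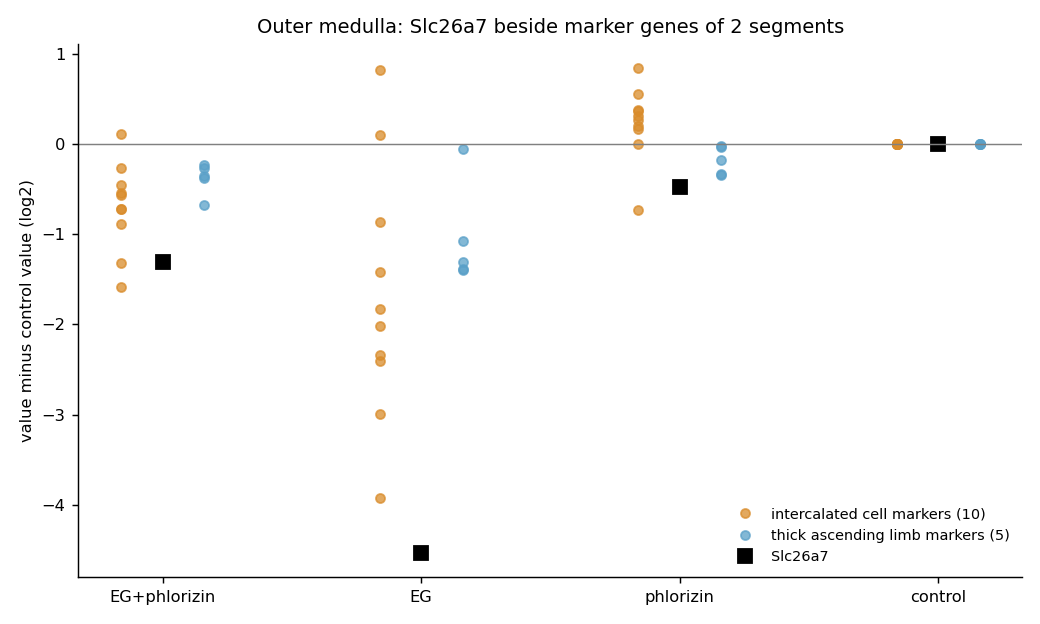
Outer medulla values minus the control outer medulla array, log2, for Slc26a7 (black squares), 10 intercalated cell markers (orange) and 5 thick ascending limb markers (blue) in the 4 treatments, 1 array each. On the EG array Slc26a7, at -4.52, lies below all 15 markers, and with EG and phlorizin it had 12.04, against 13.35 in control.

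Other enzymes around the hydroxyproline route varied by zone and step. Of 6 measured genes of hydroxyproline and proline metabolism, 5 were tested and 2 were higher in cortex, where 18.8% of all tested probe sets were. Aldh4a1, the dehydrogenase that follows Prodh2 in the mitochondrion, was 2.68 ± 0.22 higher in cortex (SE, limma adjusted p = 0.000182). With EG it differed from control by -1.10 in cortex and by -2.01 in outer medulla, and under phlorizin by -0.41 and -1.21. Got2, the mitochondrial aminotransferase that acts before Hoga1, differed by -0.41 in cortex and -0.06 in outer medulla. Prodh, the related dehydrogenase of proline, differed by -2.57 in cortex and by -1.73 in outer medulla, and Got1, a cytosolic aminotransferase, by -0.98 and -2.45. Aldh18a1, which starts proline synthesis, differed by 1.33 in cortex and 1.14 in outer medulla. None of these 5 passed the EG fit, where Prodh had -1.60 ± 0.31 (SE, limma adjusted p = 0.0838).

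**Figure D5:**
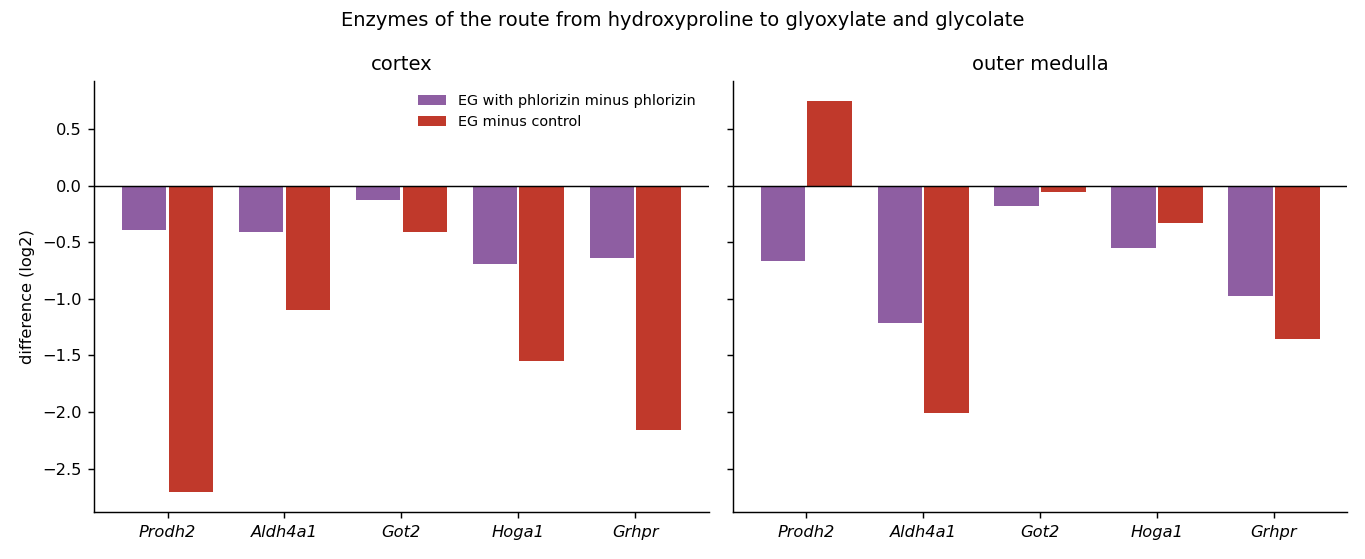
EG differences on the log2 scale along the hydroxyproline route, Prodh2, Aldh4a1, Got2, Hoga1, and Grhpr after it, in cortex and in outer medulla, for EG with phlorizin minus phlorizin and for EG minus control. Bars start at 0 and each is 1 array minus 1 array, and the longest is Prodh2 in cortex at -2.71.

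Of 10 measured enzymes that handle glyoxylate or ethylene glycol outside the 10 genes, 8 were tested. In cortex 5 were higher and 1 was lower than in outer medulla, against 18.8% and 32.7% of all tested probe sets. Agxt, the alanine-glyoxylate aminotransferase of liver, had 3.34 to 4.36 on the 8 arrays, under the mean background on all. Hao1, the glycolate oxidase of liver peroxisomes, had 8.33 with EG and phlorizin, 7.83 with EG, 7.49 with phlorizin and 7.29 in control cortex, and 4.02 to 4.66 in outer medulla, where it was under background. Set against the negative-control medians of outer medulla, cortex was at least 1.05-fold higher in Hao1. Ldha, the lactate dehydrogenase subunit that can oxidise glyoxylate to oxalate, was lower in cortex by zone, at -1.23 ± 0.19 (SE, limma adjusted p = 0.00223), and differed with EG by 0.88 in cortex and 0.29 in outer medulla. Ldhb, the other common subunit, differed with EG by -0.96 in cortex and by -2.05 in outer medulla.

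In cortex, 3 of these 8 enzymes were at least 1 lower with EG than in control, against 12.7% of all tested probe sets. None was at least 1 higher, against 9.66%. Glyctk, the kinase of glycerate, the product of Grhpr from hydroxypyruvate, differed by -1.70. Aldh2, which oxidises aldehydes including that of ethylene glycol, differed by -1.61, and Akr1a1, an aldehyde reductase, by -1.34. Under phlorizin the same 3 genes differed by -0.33, -0.24 and -0.12 in cortex. The EG fit called 0 of the 8.

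Carriers that share substrates or membranes with the Slc26 exchangers were measured too. Slc26a4, pendrin, a chloride-bicarbonate exchanger of base-secreting intercalated cells and the only other tested Slc26 gene of 5 measured, was 6.31 ± 0.69 higher in cortex (SE, limma adjusted p = 0.000561), and at least 16.7-fold higher against the negative-control medians, since its outer medulla values were all under them. It had 12.17 with EG and phlorizin, 9.32 with EG, 12.50 with phlorizin and 12.89 in control cortex, with the EG array 3.57 below control on the log2 scale. Of 13 measured sulfate, citrate and dicarboxylate carriers and their partners, 11 were tested. In cortex 7 were higher and 3 lower than in outer medulla, against 18.8% and 32.7% of all tested probe sets. Slc13a1, the apical sulfate cotransporter, had 7.85 with EG and phlorizin, 10.14 with EG, 6.01 with phlorizin and 6.22 in control outer medulla, while its cortex values were 16.67 to 17.31.

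Slc13a2, the apical carrier that reabsorbs citrate, differed with EG by -2.49 in cortex and by 0.59 in outer medulla. Pdzk1, a scaffold protein under the brush border, differed by -1.12 and 0.66, and Slc13a3, a basolateral dicarboxylate carrier, by -0.68 and -0.34, cortex first. Slc9a3, the apical sodium-proton exchanger, differed by -1.79 in cortex and by -3.54 in outer medulla. The EG fit called 0 of the 11, with Slc13a1 at 1.60 ± 0.33 (SE, limma adjusted p = 0.0868).

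Patterns across the 8 arrays were compared by the root mean square difference of log2 values, each gene centred on its own mean. The comparison covered 9322 tested probe sets with a gene symbol. Symbols that are only a LOC or RGD number were passed over, so the genes named here are the closest among the others. Lower values mean closer patterns, and the zone difference weighs most in them. Hoga1 was closest to Bdh2 (0.189), Aass (0.212) and Qdpr (0.218). Grhpr was closest to Cmbl (0.239), Car14 (0.316) and Glod5 (0.352), and Prodh2 to Anks4b (0.329), Stk32a (0.333) and Car7 (0.337). Hao2 was closest to Cyp4a2 (0.283), Tmem174 (0.300) and Dpp4 (0.305), and Agxt2 to Napsa (0.335), Cyp4a1 (0.340) and Gpx3 (0.346).

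Dao had no gene as close among those not passed over, with Hnf4a (0.483), Pzp (0.508) and Apom (0.544) nearest. Slc26a1 was closest to Glyatl2 (0.321), Acsm2 (0.332) and Cyp2e1 (0.446), Slc26a2 to Ccdc102a (0.107), and Slc26a7 to Zim1 (0.440), Mfsd4a (0.451) and Prom2 (0.467). Among the 9 genes themselves, the closest pair was Hoga1 with Prodh2 (0.441), and the next Hao2 with Hoga1 (0.484). Hoga1 and Prodh2 act in the same route, but other genes were closer to each of them than they were to each other.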

How the data were processed

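Total RNA of rat renal cortex and outer medulla was hybridised to Clariom S arrays, 1 array per zone and treatment, 8 in all. The authors deposited RMA values, per the submitters' processing notes, whose version is not stated, and the deposited values were taken as log2 from their range of 2.28 to 19.7; no scanner files were used. Of 24834 probe sets, 1646 that are not transcript probe sets were not tested. Of 23188 transcript probe sets, 15049 had 1 gene symbol, 8139 none and 0 several, from GEO's platform annotation. Tests were run on 13170 probe sets whose highest value reached the median of all deposited values, 7.54.

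limma 3.58.1 in R 4.3.3 (lmFit, eBayes, two-sided p, Benjamini-Hochberg over all tested probe sets, called at adjusted p under 0.05) compared the zones over 4 treatment pairs, and EG and phlorizin over 4 profiles. With 1 array per group, p-values measure only the spread between these samples, and within-zone differences between treatments were not tested. Tables and figures used Python 3.11.15, pandas 2.3.3 and matplotlib 3.10.9.

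In simulated data with 13170 probe sets, the zone fit recovered 40% of genes changed by 1 log2 unit and 92% of those changed by 2. The EG fit recovered 6% and 96% for the same sizes, and the zone-change fit 0% and 4%. Unchanged probe sets called were 11, 10 and 5 in the same order of fits. The simulated noise was independent between probe sets and held no phlorizin effect or EG by phlorizin interaction. These shares therefore need not hold for the deposited data, where the EG fit did not call Lcn2 at 3.99 (limma adjusted p = 0.0853). The alternatives were array centring, quantile normalization, other filters, another variance prior, single zones, a random block, other size thresholds and leaving out each treatment.

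The 10 genes and all lists were chosen with earlier results of these data known. Named genes are the 10 genes, up to 4 genes per list with the largest EG or zone differences, and fixed genes of the pathway. They also include the 3 most alike genes of each tested gene, with LOC and RGD number symbols passed over. Promoters are RefSeq windows, build GRCr8.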

Additional observations from a re-analysis of the deposited data

Results flagged for a closer look

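The phlorizin difference of Slc26a7 was not alike with and without EG, and had opposite signs in outer medulla. EG with phlorizin minus EG was 1.69 in cortex and 3.22 in outer medulla, while phlorizin minus control was -0.03 in cortex and -0.48 in outer medulla. Averaged over the zones, these differences lay 2.71 log2 units apart. With EG both zones had a positive phlorizin difference. Without EG it was negative in outer medulla. The cortex value of -0.03 was smaller than the 0.05 by which median centring moved that comparison, so its sign is not settled. The difference between the values with and without EG was not tested. Each value is 1 array minus 1 array, and the cortex values of Slc26a7 lie near the negative controls.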

How the results depend on the processing

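The zone result held its counts of 7 genes higher and 2 lower in cortex under array centring, quantile normalization, no filter and a robust prior. Requiring every value to reach 7.54 left 4 higher and 0 lower, since fewer genes were tested. Probe sets higher ranged from 1792 to 2831 and lower from 2869 to 4647 with 1 treatment left out. Beyond the treatment pairs of the zone fit, no paired analysis was possible because the labels carry no replicate numbers and each group has 1 array. Each of the 10 genes has 1 probe set, so the lowest-mean probe set gave no other value.

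For EG minus no EG, called probe sets were 477 higher and 361 lower with arrays centred, 0 higher under quantile normalization, 401 and 232 with no filter, 15 and 4 with every value past the filter, 3 higher with a robust prior, 6 and 1 in cortex alone, 235 and 118 in outer medulla alone, and 830 and 862 with a random block. Centring, no filter and the random block each called 1 gene lower, Grhpr. Leaving out 1 profile, which drops the other factor from the fit, gave 0 to 2345 probe sets higher and 0 to 2986 lower, and 0 to 1 genes higher and 0 to 5 lower. The cause was not tested.

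For the EG change of the zone difference, quantile normalization called 1 probe set higher and 8 lower, no filter 4 lower, and a robust prior 38 higher and 75 lower. Leaving out 1 profile gave 0 to 647 higher and 0 to 859 lower, with 0 to 1 genes higher and 0 to 5 lower. Phlorizin calls were 0 under all the alternatives run for that fit.

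Signs turned for EG in Slc26a1 (0.02 under quantile normalization, 0.56 in outer medulla alone, -0.20 to 0.17 with 1 profile left out), Agxt2 (-0.17 in cortex alone, -0.32 to 0.87), Slc26a2 (-0.11 to 0.43) and Prodh2 (0.04 in outer medulla alone). For phlorizin they turned in Hao2 (0.02 with arrays centred, 0.38 in cortex alone, -0.53 to 0.44), Slc26a1 (-0.45 in outer medulla alone, -0.10 to 0.22), Agxt2 (0.01 in cortex alone), Dao (-0.63 in outer medulla alone, -0.40 to 0.94), Grhpr (-0.18 to 1.58), Hoga1 (-0.09 to 0.85), Prodh2 (-0.18 to 0.80) and Slc26a7 (-0.41 to 2.61). For the zone change they turned in Hao2 (-0.51 to 1.40), Dao (-1.62 to 2.03), Agxt2 (-2.00 to 0.19), Grhpr (-0.88 to 0.41) and Slc26a1 (-2.40 to 0.10).

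At a size of 2, EG minus control counted 2 genes in cortex and 1 in outer medulla, and at 0.5 it counted 5 in outer medulla. EG with phlorizin minus phlorizin counted 2 in cortex and 6 in outer medulla at 0.5, and 1 in outer medulla at 2. EG with phlorizin minus EG counted 0 in cortex at 2, and phlorizin minus control 2 in each zone at 0.5. These counts pool higher and lower genes. The shares of all tested probe sets at these sizes are not given, so the counts cannot be set against the rest of the array. Median centring moved the median of all probe sets by 0.12 for EG with phlorizin minus EG in cortex. Signal limits Slc26a6, Slc26a2, Prodh2 in outer medulla and Slc26a1 in outer medulla, which lay near or under the negative controls.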

Other observations

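Enzymes that supply or use glycine and serine, the amino acids next to glyoxylate, had the zone pattern of the glyoxylate enzymes. Of 11 tested, 10 were higher in cortex, where 18.8% of all tested probe sets were. With EG, 6 were at least 1 lower than in control cortex, against 12.7% of all tested probe sets. In outer medulla 2 were, against 9.68%. Phgdh, which starts serine synthesis, had cortex values of 12.27 with EG and phlorizin, 10.96 with EG, 13.02 with phlorizin and 13.12 in control. Psat1, the next enzyme, differed by -1.65 between EG and control cortex, and Shmt2, the mitochondrial enzyme that interconverts serine and glycine, by -1.80. Gatm, which uses glycine to make the precursor of creatine, differed by -0.14 in cortex, at values of 18.86 to 19.01 near the top of the scale. The EG fit called 0 of the 11 (limma).

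Of 9 tested peroxisome genes, 5 were higher in cortex, where 18.8% of all tested probe sets were. At least 1 lower with EG than in control cortex were 2, against 12.7% of all tested probe sets. Pxmp2, a channel of the peroxisomal membrane, differed by -2.56 in cortex and by -1.73 in outer medulla, and Cat, catalase, by -1.28 and -0.62. Pex19, an import factor for peroxisomal membrane proteins that was named after its values were seen, differed by 0.24 and -0.06.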
